A study of Homo sapiens with 5 samples.

Results

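The genes examined were TXNRD1, TXN, SRXN1 and PRDX1, which encode proteins of the thioredoxin system. Their peaks were found by position, as all peaks whose summit lay in a fixed window around each gene in hg19. The windows were chr12:104600000-104750000 for TXNRD1, chr9:113000000-113030000 for TXN, chr20:620000-645000 for SRXN1 and chr1:45965000-46000000 for PRDX1. They held 6 of the 1925 peaks called after sulforaphane (SFN) and 0 of the 2199 peaks called after vehicle. Together the windows cover 0.00889% of the caller's effective genome, so few peaks of either list would fall there by position alone. The SFN list also rests on 5.10 times as many kept sequence tags as the vehicle list.

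The peaks came from chromatin immunoprecipitation and sequencing (ChIP-seq) of the transcription factor NRF2 in BEAS-2B, an established, virus-immortalised line of human bronchial epithelial cells. The SFN group (2 samples) received 10 µM D,L-sulforaphane for 5 h, and the vehicle group (2 samples) 0.1% DMSO for 5 h, both precipitated with a rabbit monoclonal antibody to NRF2. In addition, 1 vehicle sample was precipitated with rabbit IgG. Each treatment was represented by 1 peak list, so there is no spread between replicates and no test between the treatments, and intervals below cover counting error only. The lists hold no expression values, and the cell line was not checked against marker genes.

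Thioredoxin is a small protein that reduces disulfides in other proteins, and thioredoxin reductase returns it to its reduced form with electrons from NADPH. Peroxiredoxins break down hydrogen peroxide and are in turn reduced by thioredoxin, and sulfiredoxin rescues peroxiredoxins that peroxide has over-oxidised. NRF2 is kept low by KEAP1 in unstressed cells. Electrophiles such as sulforaphane modify KEAP1, and NRF2 then enters the nucleus and binds antioxidant response elements together with small MAF proteins. All 4 genes are well-known members of the NRF2 programme.

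The core letters of the antioxidant response element, TGACNNNGC, were searched on both strands of RefSeq promoters, 250 bases before to 50 bases after each start. These promoters are in GRCh38.p14, another build than that of the peaks, so no peak was placed on them. The matches are letters in these windows, and whether NRF2 binds at them was not tested. RefSeq promoters were found for 3 of the 4 genes; PRDX1 had no entry. TXNRD1, for which the table gives 2 promoters, held the core letters in each. The bases before the start are printed so that the match can be seen in its surroundings, 5′ to 3′ in the direction of the gene. Core letters that lie wholly within the printed bases are in capitals. The first TXNRD1 promoter is chr12:104215529-104215778 and the second is chr12:104286782-104287031, both on the plus strand.
TXNRD1 promoter 1: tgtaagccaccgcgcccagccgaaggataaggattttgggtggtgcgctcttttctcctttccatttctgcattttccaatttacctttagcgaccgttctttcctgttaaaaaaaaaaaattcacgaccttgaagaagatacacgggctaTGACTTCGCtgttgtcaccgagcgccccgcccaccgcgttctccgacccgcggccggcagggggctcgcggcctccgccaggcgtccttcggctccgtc
TXNRD1 promoter 2: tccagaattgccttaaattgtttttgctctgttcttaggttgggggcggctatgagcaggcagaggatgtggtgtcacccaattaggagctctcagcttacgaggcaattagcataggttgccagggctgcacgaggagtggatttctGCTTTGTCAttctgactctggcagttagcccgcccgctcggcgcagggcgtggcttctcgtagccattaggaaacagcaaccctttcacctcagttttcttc

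In promoter 1 the match TGACTTCGC began 99 bases before the start, on the strand printed. A second match in promoter 1, TGACGGAGC on the other strand, began 8 bases before the start and ended on the first transcribed base. Its first 8 printed letters thus close the stretch shown, in lower case, and its last letter lies outside it. In promoter 2 the match was on the other strand, where it reads TGACAAAGC, and lay 94 to 102 bases before the start. Promoter 2 had a GC content of 52.4%, promoter 1 had 56.4%, and the median over all promoters was 58.0%. The TXN and SRXN1 promoters had 73.6% and 80.4% GC and held no match in these windows. Of all 35116 promoters, 13.3% held the core letters. AP-1 letters (TGANTCA, both strands), which occur in 7.71% of promoters, were in none of the promoters of TXNRD1, TXN and SRXN1.

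Among 30 other genes of thioredoxin, glutaredoxin and peroxide metabolism, 25 had a RefSeq promoter. The core letters were found in 4 of these 25 (16.0%), against 16.1% of all 27305 genes in the table. The 4 were SESN1, encoding a sestrin, GPX2, encoding a glutathione peroxidase, RRM1, encoding the large subunit of ribonucleotide reductase, and TXNL1, encoding a thioredoxin-like protein. Whether these genes had NRF2 peaks was not analysed here.

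The height of a peak is its pileup, the number of tags stacked at the summit after extension to the fragment length. Fold is the caller's ratio of that height to the local control, each plus 1 tag, and control levels are stated in multiples of the average expected over the genome. The fold and p values of each peak are the authors' own.

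TXNRD1, the cytosolic thioredoxin reductase, had 3 of the 6 peaks. Peak A, chr12:104680146-104680898, had its summit at 104680724 with 67 tags (95% Poisson interval 51.9 to 85.1), a fold of 33.8 and a −log10 p of 96.4. Peak B, chr12:104613145-104613462, had 41 tags (29.4 to 55.6) at 104613297, a fold of 25.7 and a −log10 p of 59.8. Peak C, chr12:104613805-104614015, had 8 tags (3.45 to 15.8) at 104613896, a fold of 5.02 and a −log10 p of 6.77. The summits of A and B were 67427 bp apart, and those of B and C 599 bp apart, with 342 bp between the called ends of B and C. The TXNRD1 window thus held a pair of tall peaks far from each other and a small peak beside the lower of them. The next SFN peak outside the window was 1547 kb from it.

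**Figure D1:**
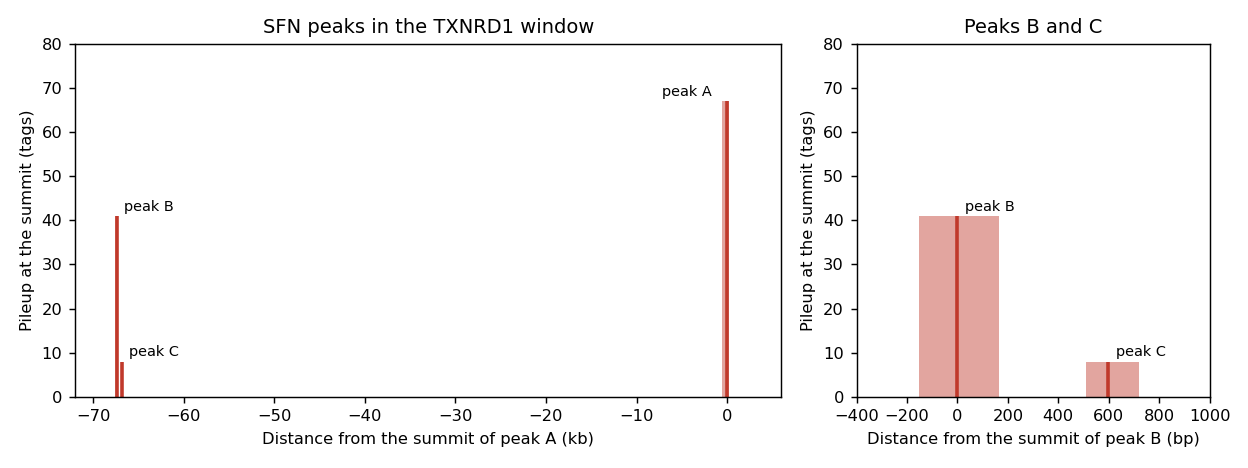
Pileup at the summit (y axis, tags) of the SFN peaks in the TXNRD1 window against distance from the summit of peak A in kb (left) and from the summit of peak B in bp (right). Lines mark summits and shading marks the called width, not the shape of the signal; peak A reaches 67 tags, peak B 41 and peak C 8.

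Peak A was also broad. Its width of 753 bp was the 8th largest among the 1010 SFN peaks at a control level under 10, where the median was 184 bp, and its summit lay 578 bp from its lower end. Peak B was 318 bp wide and peak C 211 bp. Whether peak A joins more than 1 bound place was not tested.

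TXN, thioredoxin itself, had 1 peak, chr9:113019102-113019408, with 45 tags (32.8 to 60.2) at 113019230, a fold of 16.8 and a −log10 p of 47.4. It was 307 bp wide, and the next SFN peak was 652 kb outside the window. SRXN1, sulfiredoxin, had 1 peak, chr20:634020-634277, with 29 tags (19.4 to 41.6) at 634130, a fold of 7.82 and a −log10 p of 20.0. PRDX1, a peroxiredoxin of the cytosol and nucleus, had 1 peak, chr1:45987602-45987798, with 23 tags (14.6 to 34.5) at 45987692, a fold of 6.58 and a −log10 p of 14.7. The SRXN1 peak was 258 bp wide and the PRDX1 peak 197 bp, so from TXN to PRDX1 width fell with height. In each of these windows the peak stood alone.

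In height the highest peaks of the genes ran TXNRD1, TXN, SRXN1, PRDX1. The TXNRD1 peak A was 1.49 times the TXN peak (exact 95% counting interval 1.01 to 2.22) and 2.91 times the PRDX1 peak (1.79 to 4.90). TXN was 1.55 times SRXN1 (0.952 to 2.57), and SRXN1 was 1.26 times PRDX1 (0.704 to 2.28). The neighbours TXN and SRXN1, and SRXN1 and PRDX1, were therefore not separated beyond counting error, and TXNRD1 and TXN only just were. TXN and PRDX1 were 1.96 times apart (1.16 to 3.39).

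**Figure D2:**
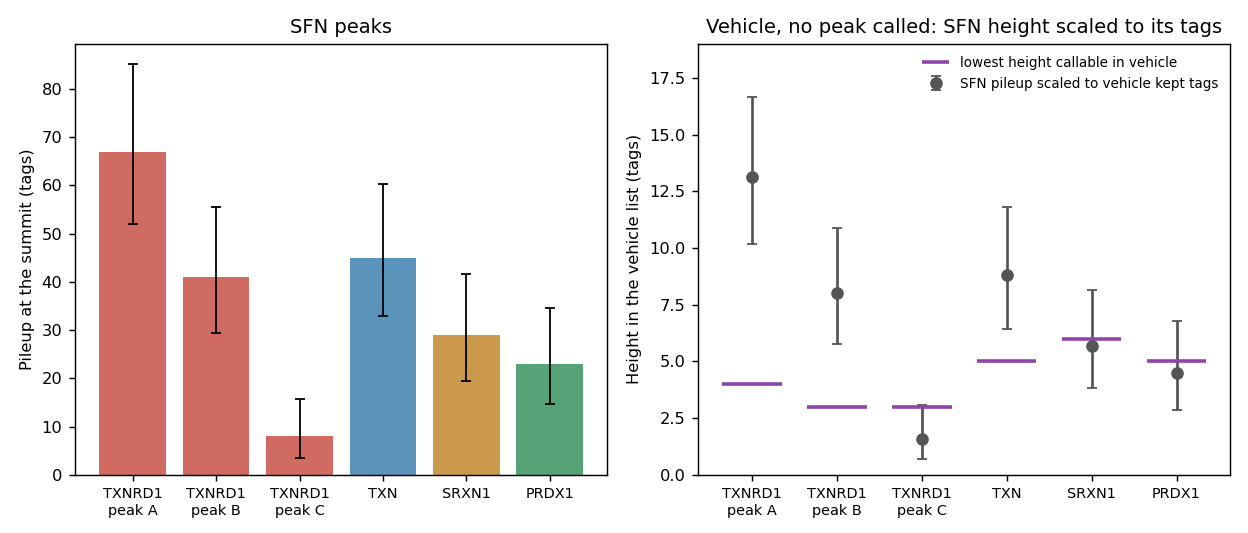
Left, pileup of each SFN peak (bars, tags) with its 95% Poisson interval; right, the same heights and intervals scaled to the kept tags of the vehicle list (points), with the lowest height callable there (purple lines). Peaks A and B of TXNRD1 and the TXN peak lie above their lines with their whole intervals, while the SRXN1, PRDX1 and peak C points lie below theirs. The intervals hold no counting error of the vehicle list.

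The highest peaks of the genes differed more in fold than in height, and the control level was higher at SRXN1 and PRDX1, which had lower folds than TXN and peaks A and B. The level was 1.5 times the genome average at peak B, 1.88 at peak C and 2.40 at peak A, 4.13 at TXN, and 6.72 and 6.27 at SRXN1 and PRDX1. In tags scaled to the SFN list this was 1.01 at peak A, 2.84 at SRXN1 and 2.65 at PRDX1. These control levels are point values, and the counting error of the control tags enters no interval given here. The lower folds at SRXN1 and PRDX1 thus combine lower heights with a higher control, while the low fold of peak C came at a low control, and the part that the source of this control signal plays was not tested. The median control level over all SFN peaks was 8.16, above that of each of the 6 peaks.

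Within the SFN list ordered by fold, peak A ranked 11th of 1925, peak B 18th and TXN 49th. SRXN1 ranked 289th, PRDX1 472nd and peak C 993rd. A fold of 10 or more was reached by 3 of the 6, the tall TXNRD1 peaks and TXN, against 8.10% of all SFN peaks. The median fold of the 6 was 12.3, and that of the whole list was 5.12. Ordered by height, all 6 ranked lower, with peak A at 289 and PRDX1 at 1013. Of the 288 SFN peaks taller than peak A, 272 had a control level of 10 or more. Among the 1010 SFN peaks at a control level under 10, which include all 6, peak A ranked 11th by fold and 17th by height, TXN 49th and 32nd, SRXN1 280th and 76th, and PRDX1 438th and 123rd. TXN, SRXN1 and PRDX1 thus ranked higher by height than by fold in that set, as did peak C (847th by fold, 726th by height). Peak A and peak B (18th by fold, 34th by height) ranked lower by height. The medians of the set were 12 tags and a fold of 6.33.

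**Figure D3:**
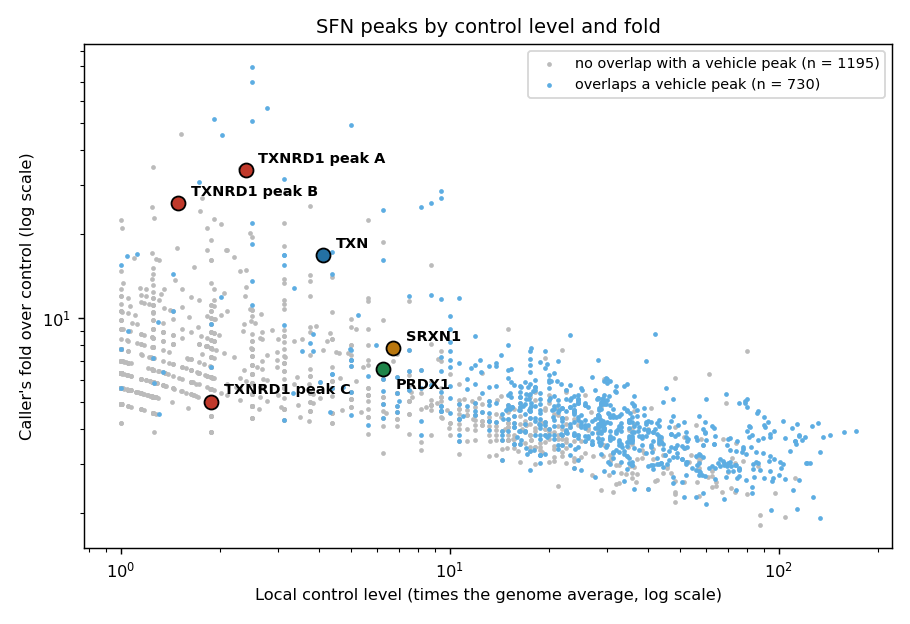
The caller's fold over control (y axis, log scale) against the local control level (x axis, multiples of the genome average, log scale) for all 1925 SFN peaks, coloured by overlap with a vehicle peak, with the 6 peaks of the thioredoxin genes labelled. Peaks A and B of TXNRD1 stand high at a low control level, and SRXN1 and PRDX1 lie lower and further right; none of the 6 overlaps a vehicle peak.

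The peaks next to them in the order by fold are given by position. Directly above peak A was chr22:35767885-35768272, also with 67 tags and absent from the vehicle list, and directly below it chr12:95263-95838 with 72 tags, which overlapped a vehicle peak of 20 tags. Above peak B was chr22:35772878-35773294 with 46 tags and no vehicle peak, and below it chrX:155259904-155260505 with 120 tags and a vehicle peak of 41. The neighbours of TXN, chr19:59118805-59119055 and chr16:90061339-90062489, had 38 and 23 tags and both overlapped a vehicle peak, of 18 and 5 tags. The neighbours of SRXN1, PRDX1 and peak C overlapped no vehicle peak.

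None of the 6 peaks shared 1 bp or more with a vehicle peak. In the whole SFN list 37.9% of peaks did, at a control level under 10 it was 9.41%, and with a fold of 15 or more in addition it was 38.7% (24 of 62 peaks). Absence from the vehicle list is thus the common state at low control, and among high folds it was found at 38 of 62 peaks, 3 of which were peak A, peak B and TXN. The 38 had a median of 38 tags, from 22 to 75, and 3 of them were taller than peak A. The 24 that were shared had a median of 77.5 tags. The nearest vehicle peak to a window was 80.2 kb from that of PRDX1 (chr1:45884772-45884925, 4 tags), 175 kb from SRXN1, 598 kb from TXNRD1 and 1278 kb from TXN, and each had 4 or 5 tags.

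What a missing call means depends on the depth. After the limit of 1 tag per position, 7448599 tags were kept for SFN and 1459665 for vehicle, so SFN had 5.10 times as many. With the same share of kept tags, peak A would have 13.1 tags in the vehicle list (10.2 to 16.7), and a height of 4 would have been called at its control level. Peak B would have 8.03 (5.77 to 10.9), where 3 tags would be called, and TXN 8.82 (6.43 to 11.8), where 5 would be. For these 3 peaks the whole interval was above the callable height. The intervals carry the counting error of the SFN height alone, so a vehicle count could still fall under the callable height. The vehicle list itself had 114 peaks at a control level within 1.2 times that of peak A, the lowest with 4 tags. There were 164 such peaks for peak B, the lowest with 3, and 69 for TXN, the lowest with 4. For SRXN1 and PRDX1 there were 66 each, the lowest with 5, and for peak C 263, the lowest with 3. At TXN and SRXN1 these lowest heights were under the computed callable heights of 5 and 6 tags. SRXN1 would have 5.68 tags (3.81 to 8.16) against 6 needed, PRDX1 4.51 (2.86 to 6.76) against 5, and peak C 1.57 (0.677 to 3.09) against 3. A vehicle peak of the same relative height was therefore not reliably detectable at SRXN1, PRDX1 and peak C at this depth. These figures assume that the immunoprecipitations recovered alike. With scaling by all tags the caller counted before filtering, all 6 would be above, but the heights themselves were counted in kept tags.

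The highest vehicle height that would have gone uncalled is a detection limit and not a measured height. It rests on the p value alone and has no interval of its own. The ratio of the SFN height to this limit is a point value. It leaves out the counting error of both heights and is not a lower bound. For peak A the limit was 3 tags, or 2.06 per 1000000 kept tags against 8.99 in SFN, a ratio of 4.38, and for peak B it was 2 tags, 1.37 against 5.50 on the same scale, a ratio of 4.02. For TXN the ratio at the limit was 2.20, for SRXN1 1.14, for PRDX1 1.13 and for peak C 0.784. Scaled by all tags before filtering, the ratio was 11.0 at peak A, 10.1 at peak B and 5.54 at TXN. It was 2.86 at SRXN1, 2.83 at PRDX1 and 1.97 at peak C, so at peak C it passed from below 1 to above it. This scaling sets heights in kept tags against totals before the limit of 1 tag per position. Of those totals 32.3% were kept for SFN and 12.8% for vehicle, and that difference enters the scaled ratios. In the 24 shared peaks of fold 15 or more at a control level under 10, where the vehicle height was measured, the ratio by kept tags had a median of 1.04 and ran from 0.414 to 4.07. These 24 were picked by having a vehicle call, so their ratios are no reference for peaks without one.

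Positions relative to exons, introns and transcription starts were not determined, since an annotation of hg19 was not used here. In the RefSeq annotation of GRCh38.p14, EID3 overlaps TXNRD1 and MMACHC overlaps PRDX1, and the next protein-coding genes are NFYB and CHST11 for TXNRD1, C9orf152 and TXNDC8 for TXN, TCF15 and SCRT2 for SRXN1, and CCDC163 and AKR1A1 for PRDX1. A peak in a window cannot be assigned to the named gene over such a neighbour from these data.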

How the data were processed

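NRF2 ChIP-seq peak lists of SFN- and vehicle-treated BEAS-2B cells were used. The submitters' processing notes name CASAVA 1.4, BWA, MACS2 and hg19. Per the file headers, peaks were called with MACS 2.1.0.20140616 against a control whose name carries input and IgG, from 36 bp tags, at most 1 per position, at a q of 0.05 (SFN, 7448599 of 23090154 tags kept; vehicle, 1459665 of 11377334; control, 28125771 kept). The sources used here do not state whether samples were pooled before calling. The deposited signal is the pileup at the summit in tags, and the deposited fold is a ratio to the local control. The −log10 p and −log10 q values are also as the authors deposited them.

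The control level at each peak was recovered from its pileup and fold, and with it the deposited −log10 p was recomputed to within 0.0001 for every peak of both lists. The lowest callable vehicle height is the lowest whose Poisson upper tail, at the control level scaled to the vehicle tags, reached the weakest −log10 p of that list (4.67). Intervals are exact Poisson, or exact binomial for ratios between genes, at 95%. Overlap meant at least 1 bp. The overlap step was checked on shifted copies of SFN peaks, where only planted overlaps were counted. The motif step was checked on simulated sequences with and without a planted motif. The control level step was checked on simulated peaks built with the same formula for fold, so that check covers its arithmetic alone. Scripts ran in Python 3.11.15 with pandas 2.3.3 and scipy 1.17.1. Every peak in the windows was named, with the peaks directly above and below it by fold and the nearest vehicle peak. The genes, gene lists and limits (control level 10, fold 10 and 15) were chosen with earlier results of these data known. Alternatives were other q limits, windows, overlaps, rankings and tag scalings. Motifs within peaks and peaks near other pathway genes, which need a genome or annotation of hg19, were not analysed here.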

Additional observations from a re-analysis of the deposited data

How the results depend on the processing

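The 6 SFN peaks became 5 at a q of 1e-05 or less, where peak C was lost, and stayed 6 with windows widened by 50 kb on each side or with any base inside. The 4 genes with an SFN peak, the 0 vehicle peaks and the 0 overlaps were the same in each alternative run. Ranks by fold moved with the measure. Ordered by pileup, peak A of TXNRD1 ranked 289, B 645, C 1641, TXN 580, SRXN1 874 and PRDX1 1013. Ordered by −log10 p, peak A ranked 17, B 43, C 1814, TXN 74, SRXN1 455 and PRDX1 796. The 3 peaks expected above the lowest callable vehicle height became 6 with scaling by all tags and stayed 3 at the lower limit of the heights. This result, the ranks at a control level under 10 and the ratios to the highest uncalled vehicle height, with all their alternatives, were chosen after the data were seen. Scaled by all tags, that ratio rose at each of the 6 peaks, from 4.38 to 11.0 at peak A and from 0.784 to 1.97 at peak C. That scaling sets heights in kept tags against totals before filtering. The ratio of SFN to vehicle pileup at shared places gave no value, since no place was shared, and motif windows around summits need a genome of hg19 and were left out. No paired analysis was possible because the 2 lists carry no value for any single sample, and for that reason no replicate could be left out. Depth, 1459665 kept tags in the vehicle list, bounds every statement on an uncalled place.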
